A study of Mus musculus with 24 samples.

Results

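Mouse amniotic cells (MACs), the starting cells of a study of conversion to an endothelial state, were compared with endothelial cells (ECs) cultured from adult lung (Akt-LECs) and adult liver (Akt-liver ECs). Their 9 RNA-seq libraries, 3 per group, were chosen by sample title from the 24 libraries of the series. MACs were the attached cells of amniotic fluid from C57BL/6 embryos aged E11.5 to E13.5, grown in AmnioMAX medium, and each replicate was an independent culture in which the embryos of a litter were pooled. Akt-LECs and Akt-liver ECs were captured from C57BL/6 lung or liver on beads against CD31, infected with a lentivirus for constitutively active myrAkt1, and sorted again on VE-cadherin and CD31. They were grown on fibronectin in EC medium with heparin, endothelial mitogen and SB431542, an inhibitor of Tgf-beta receptor signalling. The MACs carried no Akt virus and were not sorted. Developmental stage, organ, medium and sorting therefore changed together between the MACs and the cultured ECs, and their parts in any difference cannot be told apart. The Akt virus also differed, and MACs given that virus (Akt-MACs, 3 libraries) are set beside the MACs for that reason after the gene groups.

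Amniotic fluid holds cells shed or grown out from the amnion and from fetal surfaces, and the cells that attach in culture are mostly described as fibroblast-like or epithelial-like. Endothelial cells line vessels and share a surface program of junction proteins and receptors, maintained by Ets, Sox and Gata transcription factors. Mesenchymal cells build collagen matrix, and many keep a record of their body position in the Hox genes they express. In bulk RNA, fewer cells of a type and less RNA per cell cannot be told apart.

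Values were FPKM, the study's measure of transcript level corrected for transcript length and library size, summed over the RefSeq transcripts of each gene. The summed FPKM per library ran from 1693322 to 1946596, and from 12904 to 14793 genes were above 0. The read depth behind these values is unknown, and an exact 0 can be a failed estimate. Both EC groups held endothelial RNA as their labels say, which does not check lung against liver. The 38 endothelial surface and signalling genes summed to 19046 to 45467 FPKM in Akt-LECs, 29272 to 42766 FPKM in Akt-liver ECs and 1501 to 3406 FPKM in MACs. 

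Akt-LEC 1 and Akt-liver EC 1 stood apart from the other EC libraries, and the headers of their files carry consecutive numbers. Their distance from each other, 1 minus Pearson's correlation of log2(FPKM + 1) over genes, was 0.0584, against 0.133 to 0.173 from Akt-LEC 1 to the other Akt-LECs and 0.141 to 0.151 from Akt-liver EC 1 to the other Akt-liver ECs. The 15 macrophage and leukocyte genes measured summed to 2471 FPKM in Akt-LEC 1 and 1966 FPKM in Akt-liver EC 1, against 64.4, 116, 292 and 579.6 FPKM in the other EC libraries and 7.62 to 33.8 FPKM in MACs. The fibroblast gene Col1a1 was at 1065 FPKM in Akt-LEC 1 and 556 FPKM in Akt-liver EC 1, and at 0 to 5.66 FPKM in the other 4. Akt-liver EC 1 also held the muscle regulators Myog at 203 and Myod1 at 143 FPKM and the epithelial keratin Krt8 at 490.4 FPKM. Endothelial genes stayed high in both, at 19046 and 29272 summed FPKM. Counts of called genes are therefore also given without both libraries, an alternative chosen after the data were seen. Leaving out libraries that hold mesenchymal RNA raises the number of mesenchymal calls by its construction, so the values without them are a description and no independent support.

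The MACs were further from either EC group than the EC groups were from each other. Over the genes with a mean of at least 1 FPKM in the 9 libraries, the mean distance was 0.259 from MACs to Akt-LECs, 0.261 from MACs to Akt-liver ECs and 0.117 between Akt-LECs and Akt-liver ECs. The excess of the first kind of distance over the last was 0.147, 0.128 and 0.154 for MAC 1, 2 and 3, with a mean of 0.143 ± 0.0137 (SD, n = 3). No test was made of this excess. Without the 2 libraries that stood apart it was 0.189. The distance was 0.149 between MAC 1 and MAC 2, 0.14 between MAC 1 and MAC 3 and 0.184 between MAC 2 and MAC 3, against 0.101 to 0.173 within the Akt-LECs and 0.0527 to 0.151 within the Akt-liver ECs, so the spread of the MACs overlapped that of the other groups.

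**Figure D1:**
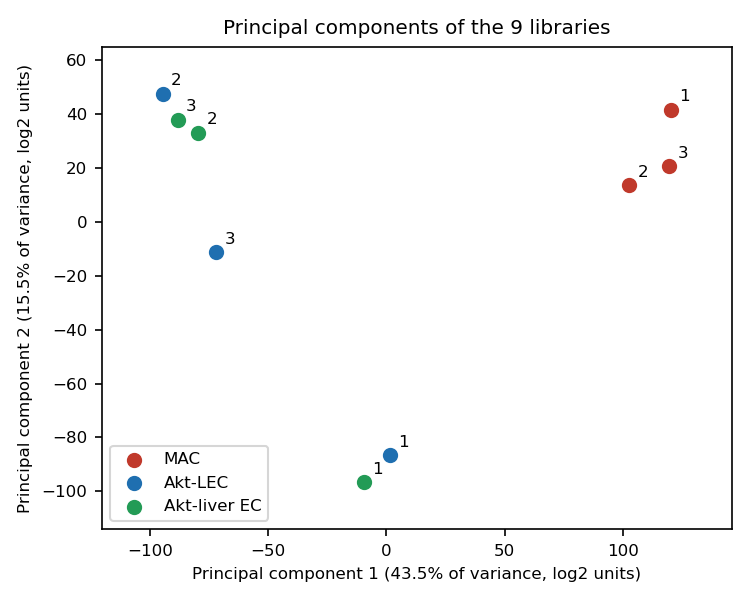
Principal components of log2(FPKM + 1) over the 14450 genes tested, with 1 numbered point per library (red MAC, blue Akt-LEC, green Akt-liver EC). The MACs lie at 103 to 120 on the first component (43.5% of the variance), Akt-LEC 1 and Akt-liver EC 1 at 1.42 and -9.66, and the other EC libraries at -94.6 to -71.9.

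In all, 512 genes were higher and 635 were lower in MACs than in both cultured EC groups, which is 3.54% and 4.39% of the 14450 genes tested. A gene counted when limma gave a Benjamini-Hochberg adjusted p below 0.05 for MACs against the mean of the EC groups and the difference in mean log2(FPKM + 1) was past 1, in the same direction, against that mean and against each EC group. All 3 MACs lay above all 6 EC libraries for 490 of the 512 and below them for 573 of the 635, where 8.67% and 10.4% of all tested genes did so. The median difference over all tested genes was -0.04, and -0.01 without the 2 libraries that stood apart. Without Akt-LEC 1 and Akt-liver EC 1, 804 of 14204 genes were higher (5.66%) and 591 were lower (4.16%). Of the genes called in all 9 libraries, 406 of 512 and 467 of 635 were called again, and 0 were called in the opposite direction. Asked against each EC group separately, an adjusted p below 0.05 was reached by 166 higher and 280 lower genes (1.15% and 1.94%). At an unadjusted limma p below 0.05 and any fold, 14.4% of tested genes lay above and 16.2% below the ECs, which is the background for the unadjusted counts given beside lists without calls. Single libraries moved the counts. Without MAC 1 they fell to 117 higher and 240 lower. The number higher was 279 without MAC 3, 278 without Akt-LEC 3, 329 without Akt-liver EC 2 and 229 without Akt-liver EC 3, and the number lower was 374 without Akt-liver EC 3.

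**Figure D2:**
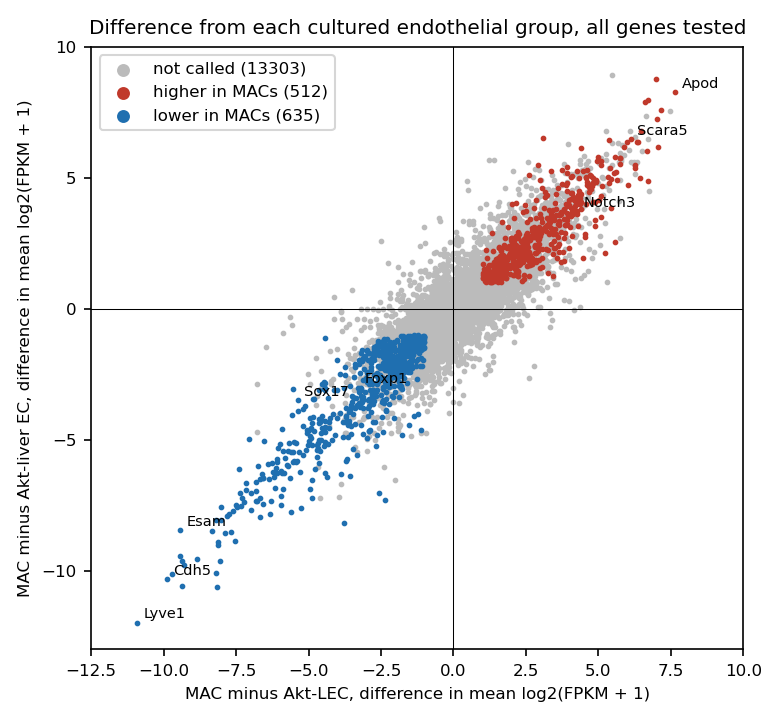
Difference in mean log2(FPKM + 1) of MACs from Akt-LECs (x axis) and from Akt-liver ECs (y axis), with 1 point per gene tested. Red points are the 512 genes called higher in MACs, blue points the 635 called lower and grey points the rest, and most called genes lie near the diagonal because both axes share the MAC libraries.

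Most of the endothelial surface program was low in MACs or absent from them. Of the 38 endothelial surface and signalling genes tested, 29 were lower in MACs, 0 were higher and 9 were not called, with a median difference of -6.33 on the log2 scale against -0.04 for all genes tested. The same 29 genes were called without Akt-LEC 1 and Akt-liver EC 1, with a median of -6.64. VE-cadherin (Cdh5, chr8:106625525-106668402 in mm9), the adherens junction protein of endothelium, was at 0.82, 1.87 and 1.27 FPKM in MACs, 1397, 2074 and 3486 FPKM in Akt-LECs and 2591, 4131 and 2295 FPKM in Akt-liver ECs. Pecam1, which encodes CD31, was at 1.47, 0 and 8.64 FPKM in MACs and 1077 to 2984 FPKM in the EC libraries. The cultured ECs had been sorted on these 2 proteins, so their difference is no finding.

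Genes for proteins other than the 2 sort markers were as sharply divided. The sort kept whole cells, however, so these genes are not independent of it. Those named in this paragraph were also picked for large differences without overlap between MACs and ECs, so their lack of overlap is no finding. Tie1, an orphan receptor of the angiopoietin system at chr4:118143796-118162666 (mm9), was at 0, 0 and 0.59 FPKM in MACs, 367, 1960.1 and 1326 FPKM in Akt-LECs and 609.9, 2238 and 1637 FPKM in Akt-liver ECs, a log2 difference of -9.93 ± 0.58 (SE; limma adjusted p = 6.23e-05). The lowest EC library was thus over every MAC library by a wide margin. Emcn, a sialomucin of the endothelial surface, was at 0, 17.5 and 0 FPKM in MACs and 1439 to 3475 FPKM in the EC libraries (-9.54 ± 0.87, limma adjusted p = 0.000839). Its only MAC signal came from MAC 2. Cldn5, the tight junction claudin of endothelium, was listed at 0 in MAC 1 and MAC 2 and was at 11.51 FPKM in MAC 3, against 475 to 4603 FPKM in ECs (-9.20 ± 0.94, limma adjusted p = 0.00157). The junction protein Esam was at 0, 1.74 and 0 FPKM in MACs and 372 to 2323 FPKM in ECs (-8.95 ± 0.59, limma adjusted p = 0.000122).

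Several of these genes were listed at 0 in all 3 MACs, so no fold is given for them. Robo4, a guidance receptor of endothelium, ran 88 to 584 FPKM in ECs (limma adjusted p = 8.97e-05), Gpihbp1, the capillary anchor of lipoprotein lipase, 85.6 to 381 FPKM (limma adjusted p = 5.25e-05), and the adhesion receptor Adgrl4 119 to 1076 FPKM (limma adjusted p = 6.06e-05). The groups did not overlap for any of them. Among the 12 genes furthest below the ECs with a mean of at least 10 FPKM there, Lyve1, Adgrg3, Mmrn1 and Klhl4 were also at 0 in every MAC. Lyve1, a hyaluronan receptor of lymphatic and liver sinusoidal endothelium, was at 1772, 3350.3 and 1192 FPKM in Akt-LECs and 1725, 5333 and 7229 FPKM in Akt-liver ECs (limma adjusted p = 2.07e-05), and the scavenger receptor Stab1 was at 0, 0.22 and 1.29 FPKM in MACs against 729 to 3935 FPKM (-9.98 ± 0.54, limma adjusted p = 5.1e-05). The lymphatic regulator Prox1 was at 111, 433 and 0.79 FPKM in Akt-LECs and 39.3, 683 and 703 FPKM in Akt-liver ECs, so the cultured EC libraries differed among themselves in lymphatic RNA and the difference from MACs (0, 0 and 4.93 FPKM) was not called (limma adjusted p = 0.0634).

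A second set of endothelial genes was lower in MACs but not absent. The receptor Kdr (Vegfr2) was at 1.99, 2.84 and 11.8 FPKM in MACs and 303 to 1429.9 FPKM in ECs (-7.07 ± 0.65, limma adjusted p = 0.000839). The Tgf-beta co-receptor Eng was at 18, 103 and 47.1 FPKM in MACs and 772 to 3071 FPKM in ECs (-5.18 ± 0.50, limma adjusted p = 0.00117), and the sphingosine-1-phosphate receptor S1pr1 at 39.1, 97.9 and 52.6 and 833 to 1815 FPKM (-4.55 ± 0.36, limma adjusted p = 0.000386). Cd34, which is also made by many fibroblasts, was at 298, 54.5 and 197 FPKM in MACs and 390.1 to 3287 FPKM in ECs (-2.75 ± 0.72, limma adjusted p = 0.0484), close to the threshold. Of the 9 genes not called, Flt1 was at 4.87, 3.91 and 72.5 FPKM in MACs and 1.13 to 108 FPKM in ECs, the caveolar coat gene Cav1 at 1637, 697 and 358 and 1202 to 4386 FPKM, and Thbd at 602, 312 and 352 and 133 to 1109.8 FPKM. All 3 overlapped between the groups. Vwf, the clotting protein of many endothelia, was at 0, 0.38 and 0.59 FPKM in MACs, 24.7, 89.8 and 115 FPKM in Akt-LECs and 1.19, 0.26 and 0.53 FPKM in Akt-liver ECs. It therefore met the rule against Akt-LECs but not against Akt-liver ECs.

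Promoters of 2 endothelial genes called lower in MACs and of 2 genes at the opposite end of the comparison are shown. Ets factors bind a GGAA core, and some of them, such as Erg and Fli1, were low or absent in MACs while Ets1 was present. A link between these factors and the called genes was not tested. The windows are from RefSeq (GRCm38.p6), run from 250 bases before to 50 after the start, and read 5′ to 3′ on the gene's strand. Capitals mark AGGAAG or CGGAAG on either strand, overlapping matches included.
Tie1, chr4:118489800-118490099, minus strand: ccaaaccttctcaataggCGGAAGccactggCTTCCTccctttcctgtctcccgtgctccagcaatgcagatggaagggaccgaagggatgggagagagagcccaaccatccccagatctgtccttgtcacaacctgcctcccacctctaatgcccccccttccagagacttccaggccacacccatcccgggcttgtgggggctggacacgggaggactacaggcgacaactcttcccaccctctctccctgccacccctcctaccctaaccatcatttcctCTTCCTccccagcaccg
Robo4, chr9:37401722-37402021, plus strand: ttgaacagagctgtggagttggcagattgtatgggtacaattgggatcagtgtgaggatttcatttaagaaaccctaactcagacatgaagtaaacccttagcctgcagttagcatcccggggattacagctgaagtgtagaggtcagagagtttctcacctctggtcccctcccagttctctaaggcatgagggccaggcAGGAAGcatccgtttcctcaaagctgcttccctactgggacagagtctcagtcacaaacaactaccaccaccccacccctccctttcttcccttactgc
Crabp1, chr9:54764498-54764797, plus strand: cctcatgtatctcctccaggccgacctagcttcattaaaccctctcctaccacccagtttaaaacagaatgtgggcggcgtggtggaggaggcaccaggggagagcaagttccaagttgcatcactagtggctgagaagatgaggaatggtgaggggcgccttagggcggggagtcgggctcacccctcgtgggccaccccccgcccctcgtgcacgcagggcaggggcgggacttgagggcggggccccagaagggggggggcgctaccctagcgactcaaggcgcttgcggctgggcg
Col6a1, chr10:76725995-76726294, minus strand: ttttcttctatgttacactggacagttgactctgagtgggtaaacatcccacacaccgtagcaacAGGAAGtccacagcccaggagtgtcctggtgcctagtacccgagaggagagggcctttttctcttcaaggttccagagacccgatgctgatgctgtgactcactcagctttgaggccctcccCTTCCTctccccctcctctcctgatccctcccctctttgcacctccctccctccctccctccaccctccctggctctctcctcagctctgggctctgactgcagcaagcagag
The windows held 3, 1, 0 and 2 matches. Of all 32851 promoter windows in the table, 46.5% held at least 1 match, and of the 14233 windows of tested genes 52.4% did. The share was 52.7% of 611 windows for genes called lower in MACs and 41.7% of 527 windows for genes called higher. It was 17 of 26 windows (65.4%) for called genes of both endothelial lists that had a window. Many called genes had no window. The windows covered 469 of the 635 lower and 391 of the 512 higher genes. They covered only 19 of the endothelial genes called lower, which were 29 surface and signalling genes and 12 transcription factors. A match is a stretch of letters and not a measured binding site.

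Of 20 endothelial transcription factors tested, 12 were lower in MACs, 0 were higher and 8 were not called, with a median log2 difference of -4.39. The Ets factor Erg was at 0, 0 and 0 FPKM in MACs, 176, 427 and 442 FPKM in Akt-LECs and 205, 583 and 399 FPKM in Akt-liver ECs (limma adjusted p = 3.15e-05). Its relative Fli1 was at 0, 1.61 and 0.65 FPKM in MACs and 139 to 426 FPKM in ECs (-7.22 ± 0.42, limma adjusted p = 6.06e-05). Etv2, the Ets factor of early embryonic vessels, was at 0 in all 9 libraries. Ets1, which many cell types use, was at 75.8, 59.5 and 113 FPKM in MACs and 195 to 379 FPKM in ECs, a smaller difference of -1.58 ± 0.27 (limma adjusted p = 0.0138).

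Of the SoxF factors, Sox18 was at 0, 0 and 1.18 FPKM in MACs and 316 to 2218 FPKM in ECs (-9.50 ± 0.71, limma adjusted p = 0.000279). Sox17 was at 0 in every MAC, and in ECs it was low and uneven, at 24.5, 42.2 and 64 FPKM in Akt-LECs and 82.8, 1.49 and 5.61 FPKM in Akt-liver ECs (limma adjusted p = 0.029). Sox7 was at 35.2, 0 and 27.8 FPKM in MACs and 121 to 402 FPKM in ECs (limma adjusted p = 0.0416), and its call was lost without the 2 libraries that stood apart (limma adjusted p = 0.0692). Tal1 and Lyl1, helix-loop-helix factors of blood and endothelium, were at 0 in all MACs and ran 41.4 to 105 and 15.3 to 152 FPKM in ECs. Their cofactor Lmo2 was at 137, 0 and 2.04 FPKM in MACs, and at 123 to 1583 FPKM in ECs (-6.08 ± 1.54, limma adjusted p = 0.0438), so that MAC 1 lay above the lowest EC library. Gata2 was not divided, at 131, 33.5 and 107 FPKM in MACs and 64.6 to 197 FPKM in ECs. Klf2, Nr2f2 and Elk3 were called as lower only without the 2 libraries, which brought the list to 14 of 20.

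The Notch pathway gave calls in both directions. Of 11 genes tested, Dll4, Dll1, Notch4 and Notch1 were lower in MACs and Notch3 was higher. The endothelial ligand Dll4 was at 0, 0 and 0.96 FPKM in MACs and 31.5 to 112 FPKM in ECs (-5.84 ± 0.45, limma adjusted p = 0.000358), and the endothelial receptor Notch4 at 1.33, 0.79 and 4.33 and 14.5 to 229 FPKM (-4.90 ± 0.89, limma adjusted p = 0.0163). Notch3, the receptor of mural cells, was at 49.1, 84.5 and 58.2 FPKM in MACs, 16.9, 0.38 and 0.44 FPKM in Akt-LECs and 14, 3.24 and 0.65 FPKM in Akt-liver ECs (4.01 ± 0.96, limma adjusted p = 0.0362). The highest EC values were those of Akt-LEC 1 and Akt-liver EC 1. Notch1 lay at the threshold (limma adjusted p = 0.0491) and was not called without those libraries (limma adjusted p = 0.0916), although its difference was -1.60 with and -1.64 without them and the call was also lost on leaving out each of 8 of the 9 libraries singly, while the ligand Jag1 was then lower, which kept the count at 4.

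At the other end were genes that MACs held and ECs nearly lacked. By the rule of the 12 largest log2 differences among called genes that did not overlap between MACs and ECs and reached a mean of 10 FPKM, these were Apod, Penk, Crabp1, Ptn, Gpm6b, Agtr2, Col6a1, Postn, Crabp2, Islr, Fxyd1 and Scara5. Crabp1, a cytoplasmic carrier of retinoic acid (chr9:54612555-54620917, mm9), was at 1014, 3908 and 1962 FPKM in MACs, 63.7, 4.31 and 6.56 FPKM in Akt-LECs and 26.4, 5 and 5.8 FPKM in Akt-liver ECs (7.38 ± 0.87, limma adjusted p = 0.00283). It was high in each MAC culture. Its relative Crabp2 was at 909, 13 and 85.4 FPKM in MACs, highest in MAC 1, and 0 to 2.83 FPKM in ECs (6.37 ± 1.15, limma adjusted p = 0.0159). These were the 2 genes called among 8 intracellular lipid and retinoid binding proteins tested, with 0 lower, and without the 2 libraries that stood apart both were called again and Fabp5 was lower. Scara5, a ferritin receptor of stromal cells, was at 57.1, 189.8 and 124 FPKM in MACs and 0 to 3.09 FPKM in ECs (6.31 ± 0.61, limma adjusted p = 0.00116).

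The level of other members of the 12 differed widely among the cultures. Penk, the precursor of enkephalins, was at 28726, 27.6 and 505 FPKM in MACs, nearly all of it in MAC 1, and 0 to 21.7 FPKM in ECs (7.88 ± 1.90, limma adjusted p = 0.0376). The growth factor Ptn was at 69.4, 5548 and 72.4 FPKM, highest in MAC 2, and 0 to 4.66 FPKM in ECs (7.34 ± 1.37, limma adjusted p = 0.0174). Apod, a secreted lipocalin, was at 38.5, 1691 and 459 FPKM in MACs and 0 to 1.67 FPKM in ECs (7.97 ± 1.02, limma adjusted p = 0.00388). The angiotensin II receptor gene Agtr2, a fetal mesenchymal gene, was at 537, 1363 and 26.3 FPKM in MACs and 0 to 5.47 FPKM in ECs (7.15 ± 1.26, limma adjusted p = 0.0151). Gpm6b, a membrane proteolipid of neural cells, was at 438, 464 and 731 FPKM in MACs, and in ECs it was over 1 FPKM only in Akt-LEC 1 at 137 and Akt-liver EC 1 at 9.81 FPKM (7.25 ± 1.57, limma adjusted p = 0.028).

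**Figure D3:**
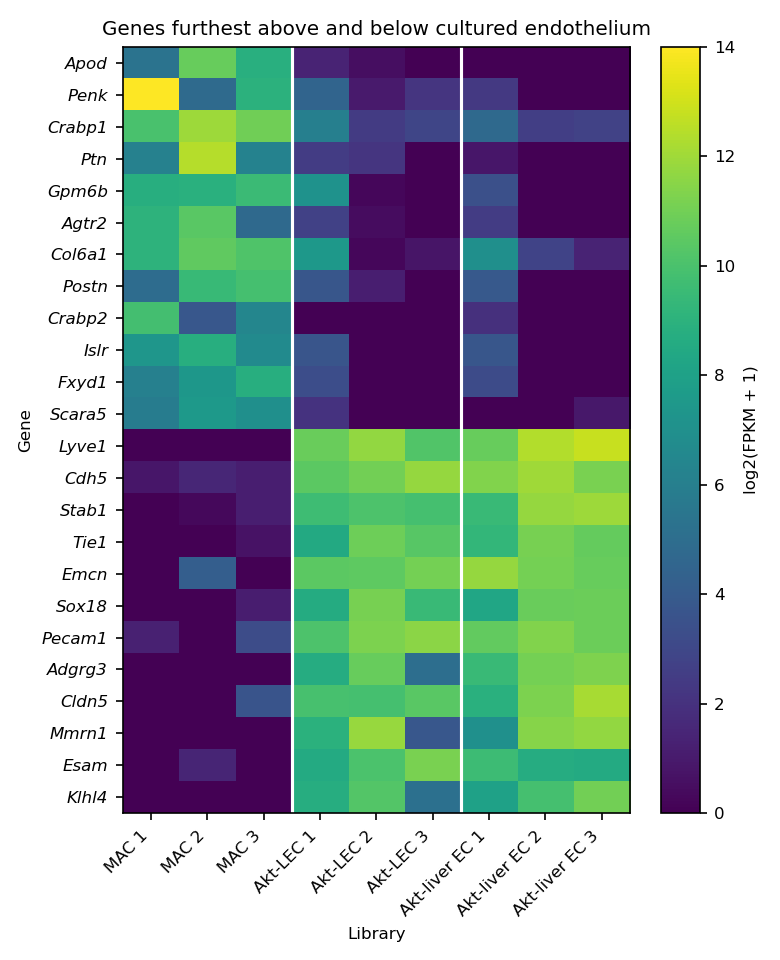
Heat map of log2(FPKM + 1) in each of the 9 libraries (columns) for the 12 called genes furthest above and the 12 furthest below cultured endothelium (rows). The upper rows are bright in the MAC columns and, for most genes, fainter in Akt-LEC 1 and Akt-liver EC 1, and the lower rows are at or near 0 in MACs and bright in all 6 EC libraries, with Adgrg3, Mmrn1 and Klhl4 weaker in Akt-LEC 3.

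Of 30 mesenchymal matrix and surface genes tested, 5 were higher in MACs (Col6a1, Postn, Lum, Cdh11 and S100a4), 0 were lower and 25 were not called, with a median log2 difference of 3.43. Without Akt-LEC 1 and Akt-liver EC 1, 18 of 30 were higher and 0 were lower, with a median of 4.68. Col6a1, a chain of collagen VI, was at 520.4, 1520.0 and 1117 FPKM in MACs, 177, 0.19 and 0.76 FPKM in Akt-LECs and 124, 6 and 1.59 FPKM in Akt-liver ECs (6.63 ± 1.74, limma adjusted p = 0.0479). Postn, a matrix protein of fibroblasts and periosteum, was at 30.5, 701 and 929.6 FPKM in MACs and 0 to 14.2 FPKM in ECs (6.62 ± 1.40, limma adjusted p = 0.0265). Cdh11, the cadherin of mesenchyme, was at 1071, 1323 and 121 FPKM in MACs and 0.25 to 126 FPKM in ECs (5.88 ± 1.52, limma adjusted p = 0.046). MAC 3 lay just under Akt-LEC 1. Of 10 cadherins tested, only Cdh11 (higher) and Cdh5 (lower) were called, and of 7 tested without the 2 libraries Cdh2 was also higher.

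Other calls of this kind changed when Akt-LEC 1 and Akt-liver EC 1 were left out. Col1a1, the main chain of fibrillar collagen, was at 881, 1936 and 524 FPKM in MACs, 1065, 0 and 1.44 FPKM in Akt-LECs and 556, 5.66 and 1.14 FPKM in Akt-liver ECs (5.86 ± 2.41, limma adjusted p = 0.144). Without them the difference was 8.63 (limma adjusted p = 0.00078). Pdgfra, the Pdgf receptor of fibroblasts, was at 279, 473 and 96 FPKM in MACs, 343, 0.39 and 1.66 FPKM in Akt-LECs and 66, 1.39 and 0.31 FPKM in Akt-liver ECs (4.87 ± 1.88, limma adjusted p = 0.126), and without both libraries the difference was 6.99 (limma adjusted p = 0.00152). Some mesenchymal genes overlapped between the cultures. The intermediate filament gene Vim was at 12813, 7367 and 11200.3 FPKM in MACs and 6478 to 12221 FPKM in ECs, and the matrix gene Sparc at 4603, 4526 and 9589 and 1451 to 9159 FPKM.

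Mesenchymal and mesodermal transcription factors gave 1 call in each direction among 44 tested, with a median log2 difference of 2.13. Snai2, a zinc finger factor of neural crest and mesenchyme, was at 366, 184 and 102 FPKM in MACs and 5.69 to 71.8 FPKM in ECs (3.51 ± 0.69, limma adjusted p = 0.0203), and Foxp1 at 15, 4.91 and 38.6 and 76.5 to 226 FPKM was lower (-3.15 ± 0.57, limma adjusted p = 0.0159). Prrx1, a homeobox gene of limb and connective tissue, was at 881, 1519 and 497 FPKM in MACs, 524, 1.22 and 9.5 FPKM in Akt-LECs and 172, 0.41 and 1.07 FPKM in Akt-liver ECs (limma adjusted p = 0.084, and 8.25 with limma adjusted p = 0.000903 without both libraries). Twist1 was at 808, 251 and 91.7 FPKM in MACs and 0 to 39.6 FPKM in ECs, all 3 MACs over all 6 ECs, and just missed the call (limma adjusted p = 0.0504). Without the 2 libraries 9 of 42 factors were higher, among them Prrx1, Twist1, Twist2, Snai2, Tbx15, Tbx18, Runx2 and Foxf2, and 3 were lower, Foxp1, Foxf1 and Gata4.

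The actomyosin genes of contractile cells were present in every MAC culture. Of 14 tested, 0 were higher by limma (4 at an unadjusted p below 0.05) and 1, Smtn, was lower with all libraries, and 7 of 13 were higher without the 2 that stood apart. Acta2, smooth muscle actin, was at 610.3, 1246 and 722 FPKM in MACs, 810.2, 4.97 and 52.7 FPKM in Akt-LECs and 683, 13.8 and 8.91 FPKM in Akt-liver ECs (limma adjusted p = 0.162, and 5.80 with limma adjusted p = 0.00607 without both). Tagln was at 556, 1178 and 810.3 FPKM in MACs, above the 10.5 to 507 FPKM of the EC libraries (limma adjusted p = 0.102, and 4.76 with limma adjusted p = 0.00194 without both). The late markers of mature smooth muscle were low or absent in MACs, with Myh11 at 0.73, 2.18 and 1.5 FPKM and the coactivator Myocd at 0, 0 and 3.19 FPKM.

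**Figure D4:**
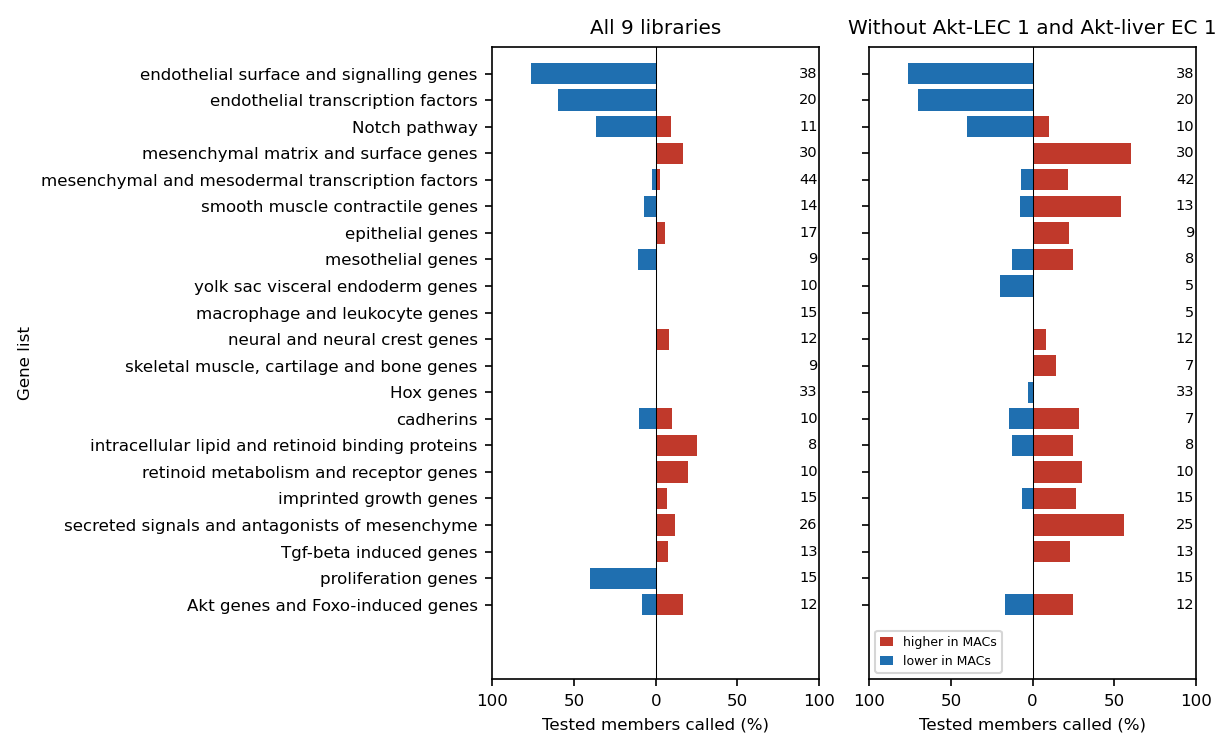
Percentage of the tested members of each gene list called higher (red, right) or lower (blue, left) in MACs than in both EC groups, with all 9 libraries and without Akt-LEC 1 and Akt-liver EC 1. Numbers at the right edge are the genes tested, for lists with at least 8 tested genes. The endothelial bars are alike in both panels, the mesenchymal, contractile and secreted-signal bars are longer in the right panel, and the proliferation bar is present only in the left.

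Of 26 secreted signals and antagonists of mesenchyme, 3 were higher in MACs and 0 lower, and 14 of 25 were higher without the 2 libraries. Wnt5a, a ligand of outgrowing mesenchyme, was at 968, 84.7 and 384 FPKM in MACs and 23.4 to 57.6 FPKM in ECs (3.24 ± 0.68, limma adjusted p = 0.0252), and Dkk2, a Wnt antagonist, at 569.9, 244 and 42 and 3.55 to 42.5 FPKM (4.25 ± 0.87, limma adjusted p = 0.0235), where MAC 3 fell within the EC range. The Bmp antagonist Grem1 was at 2318, 307 and 688 FPKM in MACs, 1112, 0 and 0 FPKM in Akt-LECs and 73.8, 2.28 and 1.3 FPKM in Akt-liver ECs and was called only without them (limma adjusted p = 0.104 with all libraries, adjusted p = 0.000863 without both). Of 13 Tgf-beta induced genes, Tgfbi was higher at 88.6, 339 and 322 against 4.46 to 52.3 FPKM (3.31 ± 0.67, limma adjusted p = 0.0231) and 0 were lower. Ccn2, a matricellular protein, was at 401, 847 and 163 FPKM in MACs, within the EC range of 62.8 to 4048 FPKM, whose upper end was Akt-liver EC 1. Without the 2 libraries, 3 of 13 were higher. Only the EC cultures received the Tgf-beta receptor inhibitor, which cannot be told apart from the other differences.

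Enzymes of retinoid metabolism accompanied the retinoic acid carriers. Of 10 genes tested, Aldh1a3 and Cyp26b1 were higher in MACs and 0 were lower, and Aldh1a1 was also higher without the 2 libraries. Aldh1a3, which makes retinoic acid, was at 167, 6.28 and 91.8 FPKM in MACs and 0.48 to 4.95 FPKM in ECs (4.08 ± 0.99, limma adjusted p = 0.0376). Cyp26b1, which breaks it down, was at 159.7, 267 and 17.6 and 0.29 to 9.69 FPKM (4.59 ± 0.98, limma adjusted p = 0.0273). The enzyme of this step with the highest level differed by culture, Aldh1a3 in MAC 1, Aldh1a2 in MAC 2 and Aldh1a1 in MAC 3. Aldh1a2 was at 15.6, 3736 and 6.48 FPKM, with nearly all of it in MAC 2, and Aldh1a1 was at 92.1, 169 and 216 FPKM in MAC 1, 2 and 3. The receptor gene Rarg was at 387, 122 and 252 FPKM in MACs and 34.3 to 123 FPKM in ECs and was not called.

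Of 15 imprinted genes tested, Igf2r, the clearance receptor for Igf2, was higher at 337, 247 and 382 against 34.6 to 151 FPKM (2.23 ± 0.48, limma adjusted p = 0.0281). Igf2 itself was at 633, 1041 and 258 FPKM in MACs and 6.68 to 1054 FPKM in ECs and overlapped. Dlk1 was at 6.93, 2500.4 and 84.7 FPKM and its neighbour Meg3 at 9.97, 722 and 97.2 FPKM in MACs, both mainly in MAC 2. Of 6 fetal growth regulators 0 were called by limma (3 higher at an unadjusted p below 0.05), and 3 were higher without the 2 libraries, as were 4 of the 15 imprinted genes, with 1 (Mest) lower. Hmga2, a chromatin protein of embryonic cells, was at 830.2, 236 and 1127 FPKM in MACs and 23 to 609.6 FPKM in ECs, and Lin28a was at 0 in all 9.

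Many, but not all, markers of other cells that amniotic fluid or its sac could supply were low in MACs or listed at 0 there. The epithelial genes Epcam, Cdh1, Krt5, Krt14 and Trp63 were listed at 0 in all 3 MACs, and Krt8 was at 0, 0 and 1.54 and Krt18 at 0, 0 and 8.42 FPKM. Of 17 epithelial genes tested, Tfap2a, which neural crest also makes, was higher in MACs at 103, 3.62 and 89.3 FPKM (4.69 ± 1.01, limma adjusted p = 0.0274), and Krt19 was at 51, 14.1 and 51.2 FPKM. The whole epithelial list summed to 465, 25.8 and 165 FPKM in MAC 1, 2 and 3. In Akt-LECs it summed to 9.72 to 334 FPKM and in Akt-liver ECs to 15.5 to 2344 FPKM. The list was thus not low in MAC 1, and the members named here do not account for all of its sum there. The yolk sac endoderm genes Afp, Alb, Apoa1 and Hnf4a were at 0, although Trf reached 5632 FPKM in MAC 3. The macrophage genes Ptprc, Adgre1, Tyrobp, C1qa and Spi1 were at 0 and all 15 summed to at most 33.8 FPKM in a MAC library. Of the pluripotency genes, Pou5f1, Nanog and Zfp42 were at 0 in all 9 libraries, and the globin genes Hba-a1 and Hbb-bs were too. No call was made among the 10 yolk sac, 15 macrophage, 2 erythroid, 2 pluripotency, 9 skeletal and 4 trophoblast genes tested by limma, of which at an unadjusted p below 0.05 5 were higher and 2 were lower. Without the 2 libraries Apoa2 was lower (of 5 yolk sac genes tested) and Sp7 (of 7 skeletal) and Prl2c2 (of 3 trophoblast) were higher, and of 9 epithelial genes Krt19 and Tfap2a were higher. Of 9 mesothelial genes only Podxl, which is also endothelial, was called (lower). The list was not low in MACs, at 469 to 2748 summed FPKM against 296 to 602 in Akt-LECs and 138 to 1016 in Akt-liver ECs, led by the matrix gene Efemp1 at 1839.9, 2731 and 229 FPKM in MACs. Efemp1 and Krt19 were higher without the 2 libraries (2 of 8), while the mesothelial markers Msln and Wt1 were at 1.33, 0 and 7.92 and 0.69, 0 and 28.7 FPKM in MACs. Prl2c2, a placental prolactin relative with near-identical copies that share reads, was at 1141, 107 and 5949 FPKM in MACs and 0 to 418 FPKM in ECs (limma adjusted p = 0.1).

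Of 15 cell-cycle genes tested, 6 were lower (Mki67, Bub1, Aurkb, Plk1, Mcm2 and Mcm5) and 0 were higher, with a median log2 difference of -1.88. Mki67 was at 6.75, 39 and 15.3 FPKM in MACs, 175, 102 and 115 FPKM in Akt-LECs and 90.9, 30.4 and 57.1 FPKM in Akt-liver ECs (-2.29 ± 0.53, limma adjusted p = 0.0333). The highest MAC library passed the lowest EC library. Without Akt-LEC 1 and Akt-liver EC 1, 0 of 15 were called by limma, with a median of -1.49. The difference of Mki67 was then -1.99 (adjusted p = 0.0734), little smaller, and its call was also lost on leaving out each of 6 of the 9 libraries singly. All 15 differences were below 0 in both fits, 13 at an unadjusted p below 0.05 with all libraries and 11 without both.

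Akt1, the gene that the EC virus encodes in active form, was not called. It was at 692, 551 and 666 FPKM in MACs, 798, 1124 and 1266 FPKM in Akt-LECs and 892, 559 and 656 FPKM in Akt-liver ECs (-0.42 ± 0.22, limma adjusted p = 0.235). The FPKM of the gene cannot separate viral from endogenous transcripts. Akt2 was higher in MACs at 143, 147 and 108 against 22.2 to 79 FPKM (1.82 ± 0.47, limma adjusted p = 0.0443). The list also holds genes taken as induced by Foxo factors, whose regulation was not measured here. Pik3ip1, an inhibitor of PI3-kinase, was higher at 169, 106 and 106 against 4.15 to 52.4 FPKM (3.32 ± 0.65, limma adjusted p = 0.0204). Irs2 was at 46.9, 77.6 and 26.9 against 0 to 50.5 FPKM (limma adjusted p = 0.115). Trib3, also in the list, was lower at 15.3, 17.4 and 26.9 against 49.7 to 272 FPKM (-2.38 ± 0.46, limma adjusted p = 0.0192). The other 9 of 12 genes were not called, Akt1 and Irs2 among them. Without the 2 libraries 3 were higher, Irs2 being the one added, and 2 were lower, Trib3 and Klf2.

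Akt-MACs, which carry the Akt virus as the cultured ECs do, were also below the ECs in most endothelial genes followed. Set against the same 6 EC libraries in place of MACs, the log2 difference was -9.20 for Tie1, -10.43 for Emcn, -9.87 for Sox18 and -6.37 for Kdr (limma adjusted p = 0.000169, 3.41e-05, 0.000308 and 0.00157), beside -9.93, -9.54, -9.50 and -7.07 for MACs. Fli1 at -3.54 and Stab1 at -5.08 were nearer the ECs than in MACs (-7.22 and -9.98) but were still called. Lmo2 (-2.28) and Ets1 (-1.18) were not called (limma adjusted p = 0.229 and 0.153). The macrophage and leukocyte genes summed to 1235, 16688 and 48604 FPKM in Akt-MAC 1, 2 and 3. The part of such RNA in these shifts was not tested.

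Many of the genes followed that were called higher in MACs were not called in Akt-MACs. Of 72 genes followed, 49 kept their call or lack of one, 20 lost it, 1 gained it and 2 changed sign. Most of the 72 were called with MACs, so they could mainly lose a call. Over all genes tested in each fit, calls did not become fewer. With Akt-MACs 1068 genes were higher and 745 lower than in the ECs, against 512 and 635 with MACs. Crabp1 went from 7.38 in MACs to 2.34 in Akt-MACs (limma adjusted p = 0.283), with 1016 FPKM in Akt-MAC 1 and 16.5 FPKM or less in the other two. Scara5 went from 6.31 to 1.73 (adjusted p = 0.149), Agtr2 from 7.15 to 1.68 (adjusted p = 0.37), Lum from 4.67 to 1.27 (adjusted p = 0.415) and Snai2 from 3.51 to 1.16 (adjusted p = 0.417). Col6a1 and Cdh11 lost the call with smaller shifts, from 6.63 to 5.25 and from 5.88 to 4.30. Penk, Ptn, Postn, Crabp2, Apod, Islr and Gpm6b remained called. The Akt-MACs held macrophage and leukocyte RNA at 1235, 16688 and 48604 summed FPKM, and its part in these shifts was not tested. The difference between MACs and Akt-MACs was not tested either.

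The 3 MAC cultures were not alike. Each is 1 library, so differences among them are given as values with no test. The 8 genes with the largest SD of log2(FPKM + 1) among MACs, of those reaching 50 FPKM, were Adcyap1, Car3, Dbh, Cfd, Gal, Ces1f, Egfl6 and Stmn2, and each was near 0 in at least 1 culture. Adcyap1, a neuropeptide of the PACAP family, was at 1338, 0 and 0 FPKM in MAC 1, 2 and 3. Ces1f, a carboxylesterase, was at 1728, 3.54 and 0 FPKM. Both marked MAC 1.

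MAC 1 was marked by posterior and distal Hox genes, which in the embryo are used in limb buds, the tail and the genital region. Hoxd13 was at 654, 0 and 0 FPKM in MAC 1, 2 and 3, Hoxa13 at 227, 0 and 4.79 FPKM and Hoxd11 at 204, 0 and 0 FPKM, and all 3 were at 0 in the 6 EC libraries. Pitx1 and Tbx4, regulators of the hindlimb, were at 54.4 and 164 FPKM in MAC 1 and at most 1.49 FPKM in the other MACs, and Akt-LEC 1 held Tbx4 at 119.7 FPKM. MAC 3 instead held anterior and middle Hoxb genes, with Hoxb5 at 0, 0 and 47.9 FPKM and Hoxb8 at 1.95, 3.42 and 73.8 FPKM, within the EC ranges of 13.8 to 72.8 and 21.2 to 139 FPKM. MAC 2 had little of either set, and its highest Hox gene was Hoxa2 at 86.6 FPKM. Of the 33 Hox genes tested limma called 0, with 3 higher and 7 lower at an unadjusted p below 0.05, and without the 2 libraries Hoxd8 was called lower.

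MAC 3 held the most RNA of neural crest genes. Sox10, the factor of crest and glia, was at 68.6, 0.88 and 670.0 FPKM in MAC 1, 2 and 3, and at 0 in all ECs. The crest surface receptor Ngfr was at 123, 5.28 and 2801 FPKM, and Foxd3 at 10.1, 0 and 176 FPKM. MAC 1 thus held some of this RNA and MAC 2 nearly none. A list of 16 noradrenergic and neuroendocrine genes was drawn up after these values were seen. Its members Dbh, which makes noradrenaline, and the neuropeptide gene Gal were at 1058 and 1705 FPKM in MAC 3 and at most 3.16 FPKM in the other cultures. The granule genes Chga and Chgb were at 387 and 222 FPKM there. All 4 were found almost entirely in MAC 3, while Th was at 1.4, 0 and 10.5 FPKM.

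MAC 2 held the most RNA of fat cell genes. Of a list of 16 adipocyte genes, also drawn up after the values were seen, Adipoq was at 26.7, 1100.0 and 0 FPKM in MAC 1, 2 and 3, the complement factor gene Cfd (adipsin) at 55.5, 2807 and 0 FPKM, and Car3 at 16.7, 3022 and 0 FPKM. The lipid droplet genes Plin1 and Cidec and the hormone gene Retn were at 283, 192 and 159 FPKM in MAC 2 and at most 4.21 FPKM in MAC 1. MAC 1 held a little of each and MAC 3 was listed at 0 for all of these. Fabp4, which endothelium also makes, was at 1437, 9686 and 30.7 FPKM in MACs and 1365 to 33549 FPKM in ECs, and the leptin gene Lep was at 1.89, 0 and 0 FPKM in MACs. Gpd1, an enzyme of glycerol lipid synthesis, was called as higher in MACs at 17.9, 645 and 287 against 0.67 to 14.9 FPKM (5.83 ± 1.15, limma adjusted p = 0.0206). MAC 2 also had the highest Dlk1, Aldh1a2, Barx1 and Dlx5, the last 2 at 79.2 and 60.2 FPKM.

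**Figure D5:**
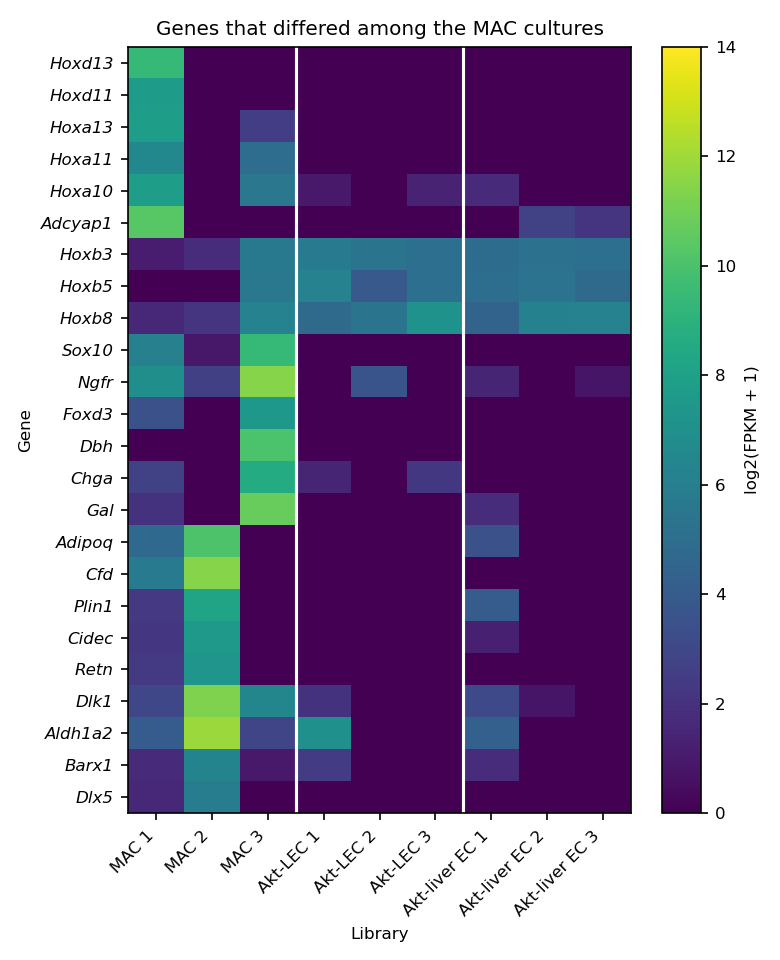
Heat map of log2(FPKM + 1) in each of the 9 libraries (columns) for genes named as differing among the MAC cultures (rows), chosen after their values were seen. Distal Hox genes light up in MAC 1, Sox10 to Gal in MAC 3 and Adipoq to Dlx5 in MAC 2, and most of these rows are dark in the EC libraries outside Hoxb3, Hoxb5 and Hoxb8.

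The cultures also differed in sex-linked RNA. The X-inactivation transcript Xist was at 75.3, 0.27 and 188 FPKM and the Y-linked gene Ddx3y at 1.61, 154 and 5.37 FPKM in MAC 1, 2 and 3. MAC 2 thus held Y-linked RNA with almost no Xist, and the other two held mostly Xist, although each culture pooled the embryos of a litter. Of 5 sex-linked genes tested limma called 0, and 0 passed at an unadjusted p below 0.05. Across these differences the endothelial genes Cdh5, Tie1, Robo4, Erg and Sox17 were below 2 FPKM in each of the 3 cultures, though Sox17 was so in Akt-liver EC 2 as well. These genes were singled out with their low MAC values known, so their shared low level is no finding. Other endothelial genes called lower, such as Eng, Cldn5 and Lmo2, differed more among the cultures. Crabp1, Col6a1 and Scara5 were above all EC libraries in each culture, but the rule that picked these 3 genes required that, so it is no finding.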

How the data were processed

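Libraries were TruSeq RNA-seq read as paired 51-base ends. Per the labels and the study's methods, the authors aligned reads with TopHat to mm9 and computed FPKM with Cufflinks, scaling libraries by their upper quartile and correcting for sequence bias; tool versions are not given in the sources used here. The deposited files hold 1 FPKM value per RefSeq transcript and library and no counts, so depth and counting error are unknown.

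Of 27583 transcripts, 26934 had a current mouse gene symbol, and the 649 without one were kept under their transcript name. FPKM was summed per symbol, which gave 22282 genes with those 649 counted among them. The 14450 with a mean of at least 1 FPKM over the 9 libraries were tested, and transcripts without a symbol could be among them. limma 3.58.1 (R 4.3.3, trend, two-sided) was fitted to log2(FPKM + 1) with 3 groups, and fold changes on this scale understate the change of low genes. P-values were adjusted by the Benjamini-Hochberg method over all genes tested. They measure the spread between these samples, and no source states that the EC replicates came from separate animals. No pair of libraries held identical values. On simulated data with 14450 genes, 73% of genes changed by 2 and 89% of those changed by 3 on the log2 scale were called for this comparison, with 11 unchanged genes called. The changed genes were drawn only from those with a higher mean level. Noise was independent between libraries, with no difference between the EC groups and no pair of libraries that stood apart. The shares therefore do not apply to low genes or to that feature of the real libraries.

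The members and lists were chosen with earlier results of these data known. Of 526 list entries, 520 matched a gene. Genes named were list members (the largest called changes and those that define a cell type), the 12 called genes furthest above and below cultured ECs that did not overlap and had a mean of at least 10 FPKM in the higher group, the 8 most variable genes among MACs reaching 50 FPKM, and Akt1, Pecam1 and Cdh5. Genes outside this rule, and the adipocyte, noradrenergic, lymphatic and liver lists, were chosen after their values were seen. Alternatives were other pseudocounts, filters, scaling and library sets, a replicate block, and leaving out each library. Gene coordinates are GENCODE M1 on mm9. Other software was Python 3.11.15, pandas 2.3.3 and matplotlib 3.10.9. The other 15 libraries entered only alternatives or values named as theirs, Akt-MACs among them. Most list members enter only counts, and some genes are not reported here.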

Additional observations from a re-analysis of the deposited data

Results flagged for a closer look

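Signal appeared in libraries that the comparison does not use. In the 3 Akt-MAC libraries, amniotic cells given the Akt virus, the 15 macrophage and leukocyte genes summed to 1235, 16688 and 48604 FPKM, a mean of 22176 FPKM, against 7.62 to 33.8 FPKM in MACs. The difference was not tested.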

How the results depend on the processing

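The excess distance of MACs stayed above 0 under every alternative run. It was 0.143 as reported, 0.164 and 0.125 with a pseudocount of 0.1 and 10, 0.102 with no filter on low values, 0.127 with Spearman correlations, 0.162 with Akt-MACs in place of MACs, 0.189 without both Akt-LEC 1 and Akt-liver EC 1, and 0.134 to 0.154 with 1 library left out. The 512 higher genes became 1085 with all 24 libraries in the fit, 1068 with Akt-MACs in place of MACs, 166 when each EC group had to pass alone, 233 by the criterion of the study's methods (an unadjusted test on FPKM), 804 without both libraries, and 117 to 674 with 1 library left out. The 635 lower genes became 401 with a pseudocount of 10, 968 with all 24 libraries, 280 when each EC group had to pass alone, 110 by the study's criterion, and 240 to 591 with 1 library left out. Scaling by the median shift gave 629 higher and 563 lower genes. Where a count moved, the cause was not tested. With Akt-MACs in place of MACs the differences of Akt1 (0.33, limma adjusted p = 0.338) and S100a4 (-0.00053, limma adjusted p = 1) changed sign, and 20 of 72 genes followed lost their call, Crabp1, Agtr2, Scara5, Lum and Snai2 among them. Of 72 genes followed, 59 kept their call or lack of one without both libraries. A call was lost by 5 (among them Notch1, Mki67, Plk1 and Mcm2) and gained by 8 (Col1a1, Pdgfra, Prrx1, Twist1, Acta2, Tagln, Myl9 and Grem1). Of the 648 values of the 72 genes with 1 library left out, 482 kept the call or lack of one, 157 lost a call, 9 gained one and 0 changed sign. A replicate block gave 500 higher and 525 lower genes, but same-numbered libraries deviated together only in part (correlations of -0.118 to 0.555), so the numbers do not pair the samples. Depth is unknown for all libraries, and low values cannot be told from failed estimates.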

Other observations

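A list of 12 lymphatic endothelial genes, drawn up after their values were seen, summed to 2517 to 17292 FPKM in Akt-LECs, 4034 to 19406 FPKM in Akt-liver ECs and 437 to 964 FPKM in MACs, and 6 of the 12 were lower in MACs (5 without Akt-LEC 1 and Akt-liver EC 1). Flt4, the receptor of lymphatic growth factors, was at 525, 1705 and 74.7 FPKM in Akt-LECs and 406, 2425 and 1579 FPKM in Akt-liver ECs, and the lymphatic chemokine gene Ccl21a at 0, 4646 and 2.53 and 0, 1519 and 184 FPKM. Akt-LEC 3 was the lowest EC library in Flt4. Of 10 liver parenchyma genes, drawn up in the same way, 0 were called, and in MAC 3 nearly all of their 5638 FPKM was the transferrin gene Trf, at 5632 FPKM, with Alb, Apoa1 and Afp listed at 0. Egfl6, a matrix protein, was at 861 FPKM in MAC 2 and listed at 0 in the other 8 libraries, and Stmn2, a neuronal microtubule regulator, was at 1167, 0 and 524 FPKM in MAC 1, 2 and 3.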
